A study of Mus musculus with 20 samples.

Results

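Amino acid transporter solute carriers are the membrane proteins that move amino acids, and a few related small molecules, across the plasma membrane and the lysosomal membrane. The genes described here were all those whose mouse symbol begins with Slc1a, Slc3a, Slc6a, Slc7a, Slc36a, Slc38a or Slc43a, which came to 63 genes. Of these, 48 were among the 16978 named genes listed in at least 1 of the 3 deposited expression tables, and 36 were in all 3. The 21 genes whose highest group mean reached 1 FPKM (a fragment count scaled by transcript length and by library size) are described in detail.

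The study profiled MycCaP-Bo cells, an androgen-dependent mouse prostate cancer line from a Myc-driven tumor on the FVB background that was passed 3 times through mice for bone-homing cells and labelled with luciferase and the fluorescent protein iRFP. Tumor cells were grown as bone metastases in otherwise unmodified mice injected at 4 to 6 weeks of age, and were sorted as CD45- iRFP+ cells. All 20 libraries therefore carry the Myc transgene and the reporter, come from 1 selected line, and hold cells pooled from 3 mice each, with 5 libraries in each of 4 groups. Naive tumors received vehicle. Resist tumors received enzalutamide, an anti-androgen drug, at 30 mg/kg daily for 18 days. Resist-Mac tumors received the same enzalutamide course with clodronate liposomes, which deplete macrophages, at 1 mg per mouse in the last 4 days, and Naive-Mac tumors received clodronate liposomes without enzalutamide. Naive and Resist libraries were labelled batch 1, Resist-Mac libraries batch 2 and Naive-Mac libraries batch 3, so that in every comparison across tables macrophage depletion, or enzalutamide in depleted tumors, cannot be told apart from the batch.

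These carriers work in systems that are named for their substrates. The glycoprotein Slc3a2 is the shared heavy chain of several heteromeric exchangers, and its light chains Slc7a5 (large neutral amino acids) and Slc7a11 (cystine taken up in exchange for glutamate) give each exchanger its substrate range. Slc1a5 and the sodium-coupled Slc38 carriers bring in glutamine and other small neutral amino acids, Slc7a1 brings in arginine and lysine, and Slc36 carriers are mostly proton-coupled and partly lysosomal. Several of these genes are textbook targets of the transcription factor ATF4 in amino acid shortage, and Slc1a5 and Slc7a5 are known targets of Myc.

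The number of reads behind each library is unknown because the deposited values are already FPKM, so no counting interval could be given. Summed FPKM over listed genes ran from 481161 to 530961 in batch 1, from 617494 to 761510 in Resist-Mac and from 882276 to 1040440 in Naive-Mac. Of 8 prostate epithelium markers, Krt8, Cldn4 and Hoxb13 had a group mean of at least 1 FPKM in every group, while Krt18 and Cdh1 were below 0.2 FPKM in every group and Epcam was listed in the Naive-Mac table alone, at 0.01 FPKM. The sort was on CD45- cells, and the 8 neutrophil markers summed to medians of 436, 214, 2373 and 3754 FPKM in the libraries of Naive, Resist, Resist-Mac and Naive-Mac, with ranges of 170 to 1226, 59.9 to 579.6, 390.8 to 8479 and 58.6 to 6027 in the same order. The macrophage list of 10 genes summed to medians of 31.4, 20.8, 196.3 and 248.7 FPKM, with ranges of 16.1 to 96.6, 3.51 to 51.3, 35.3 to 801.3 and 4.53 to 519.2, nearly all of it Lyz2. Of these 10 genes, 2, 2, 4 and 1 had a mean of at least 1 FPKM in the same order. The defining markers Adgre1, Mrc1, C1qa, C1qb and C1qc were each below 0.5 FPKM in every group. Cd68, Csf1r and Ptprc had means of 2.37, 1.13 and 2.61 FPKM in Resist-Mac, against 1.07, 0.244 and 0.762 FPKM in Naive, so that they were highest in a depleted group. The erythroid list, almost entirely Hba-a1, had medians of 106.4, 164.6, 201.3 and 358.1 FPKM, and all 5 endothelial markers were below 1 FPKM. The osteoblast and stromal list of 8 genes had medians of 10.34, 21.44, 10.54 and 2.06 FPKM in the same order. It was thus highest in Resist, where its libraries ran from 10.37 to 32.15 FPKM, against 9.68 to 15.24 FPKM in Naive. In Resist vs. Naive, 3 of its genes were tested, with a median log2 difference of 0.89, and none was called. The part of these sources in the transporter differences was not tested. In sorted bulk samples, a smaller share of cells that express a gene and less RNA per cell cannot be told apart.

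The family was uneven in its levels, and a few carriers held most of its signal. The 63 genes together summed to a mean of 1283 ± 68.6 FPKM in Naive and 1193 ± 48.5 FPKM in Resist libraries, and to 1108 ± 209.1 FPKM in Resist-Mac and 641.3 ± 84.4 FPKM in Naive-Mac libraries (SD, n = 5 each). The taurine carrier Slc6a6 alone made up 34.2% ± 1.22 of that sum in Naive and 32.0% ± 3.36 in Resist libraries, with 24.5% ± 0.946 and 14.2% ± 1.80 in the Resist-Mac and Naive-Mac libraries. The genes next in level were Slc3a2, Slc7a5, Slc38a10, Slc38a2 and Slc1a5, in that order by highest group mean, and the levels of Slc3a2, Slc7a5 and Slc38a10 overlapped within the Naive libraries. At the low end of the 21 described genes stood Slc6a9, with a highest group mean of 3.92 FPKM, and Slc43a3, with 3.54 FPKM.

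**Figure D1:**
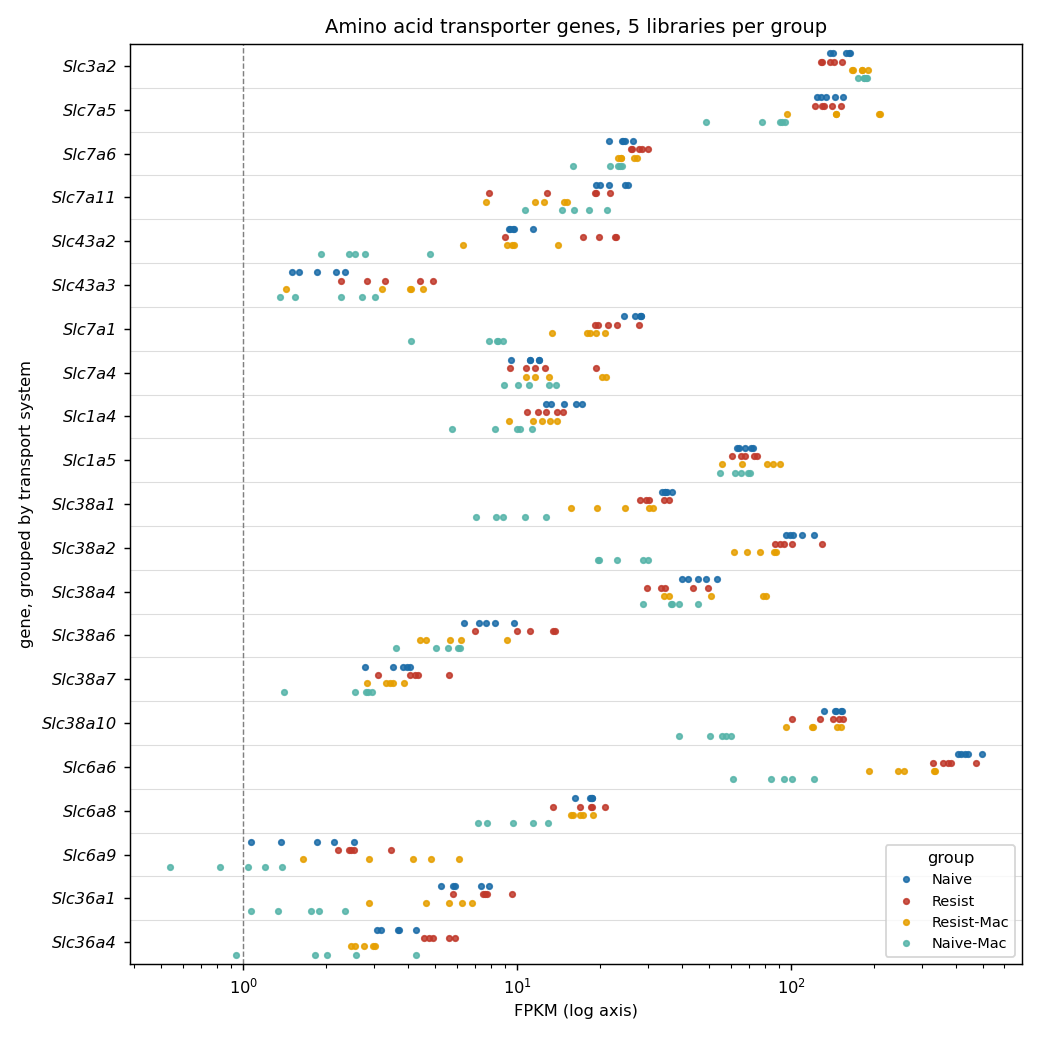
FPKM (log axis) of the 21 described genes, grouped by transport system; each point is 1 library, 5 per group, and the dashed line marks 1 FPKM. Slc6a6 libraries lie highest in Naive and Resist, from 329.1 to 496.4 FPKM, while in Naive-Mac those of Slc3a2 (175.8 to 189 FPKM) lie above those of Slc6a6 (61.2 to 120.9 FPKM). Naive-Mac points lie to the left of the other groups for Slc6a6, Slc6a8, Slc38a1, Slc38a2, Slc38a10, Slc7a1, Slc7a5, Slc43a2 and Slc36a1.

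Most other carriers were at or near 0. Just under the limit stood Slc38a9, the lysosomal arginine sensor, with a highest group mean of 0.912 FPKM, and Slc7a7, a light chain for cationic amino acids, with 0.848 FPKM. Some of the remaining 25 listed genes had no row for Resist-Mac or for both depleted groups, and were not measured there. In every group in which they had a row, these 25 genes stayed under 0.2 FPKM. They included the neuronal and glial glutamate carriers Slc1a1, Slc1a2 and Slc1a3, the light chains Slc7a8 and Slc7a9, the second heavy chain Slc3a1, the cationic carriers Slc7a2 and Slc7a3, the leucine carrier Slc43a1, the glutamine carriers Slc38a3 and Slc38a5, the proton-coupled Slc36a2 and Slc36a3, the GABA and betaine carriers Slc6a11, Slc6a12 and Slc6a13, the monoamine carriers Slc6a2 and Slc6a4, and Slc1a7, Slc6a17, Slc6a19, Slc6a20a, Slc6a20b, Slc7a13 and Slc7a14. A further 15 symbols had no row in any table (among them Slc1a6, Slc6a3, Slc6a5, Slc6a7, Slc6a14, Slc6a15, Slc6a16, Slc6a18, Slc6a21, Slc7a10, Slc7a12, Slc7a15, Slc38a8 and Slc38a11), and nothing was measured for them here. Among the light chains of Slc3a2, Slc7a5, Slc7a6 and Slc7a11 were therefore the ones with a group mean of at least 1 FPKM.

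The first comparison asked which carriers differed in enzalutamide-resistant tumors. In Resist vs. Naive, 2 of the 21 genes rose, Slc43a2 and Slc43a3, and none fell. A gene was called when its limma p-value, Benjamini-Hochberg adjusted over all genes tested, was under 0.05 and its level on the log2(FPKM + 1) scale differed by more than 1.5-fold. That scale understates the change of genes near 1 FPKM. The share called among the 10119 genes tested was 6.35%, with 5.25% higher in Resist and 1.11% lower, so that 2 of 21 is near the background. The 21 genes had a median log2 difference of -0.02 against 0.03 over all genes tested, with 10 above 0 and 11 below.

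Slc43a2 (Entrez 215113), a facilitated carrier of branched-chain amino acids, phenylalanine and methionine, had the largest log2 difference of the 21 genes. Its level was 17.3, 22.9, 19.8, 22.7 and 8.99 FPKM in the 5 Resist libraries and 9.67, 9.30, 9.69, 9.44 and 11.4 FPKM in the 5 Naive libraries. Resist replicates 1 to 4 thus lay above every Naive library, while Resist replicate 5 lay below them all. The means were 18.4 ± 5.71 and 9.90 ± 0.850 FPKM (SD, n = 5 each), a log2 difference of 0.77 ± 0.20 (SE) with a limma adjusted p of 0.0201. Without Resist replicate 3 the log2 difference was 0.72 (adjusted p = 0.0506), and without Resist replicate 4 it was 0.68 (adjusted p = 0.0506), so that the call was lost in both cases. Over all 20 alternatives the adjusted p ran from 7.22e-05 to 0.0506.

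Slc43a3 (Entrez 58207) belongs to the family by name, although it is known as a carrier of purine nucleobases and not of amino acids. It stood at 2.27, 4.92, 3.29, 4.4 and 2.83 FPKM in Resist and at 2.18, 1.59, 1.85, 1.51 and 2.35 FPKM in Naive libraries. Resist replicate 1 lay inside the Naive range and the other 4 Resist libraries lay above it. The log2 difference was 0.62 ± 0.16 (SE), with a limma adjusted p of 0.0202. The call was lost without Naive replicate 2 (0.59, adjusted p = 0.0515), Naive replicate 4 (0.57, 0.0496), Resist replicate 2 (0.52, 0.0386) or Resist replicate 4 (0.55, 0.0508). Over 19 alternatives the adjusted p ran from 0.00936 to 0.0689, and quantile normalization, median-ratio scaling and the fit of all 4 groups together also ended the call.

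Slc36a4 (Entrez 234967), a proton-independent member of its family with high affinity for proline and tryptophan, was the only described gene whose Resist and Naive libraries did not overlap (4.76% of the 21, where 12.8% of all genes tested did not overlap). Its level was 5.64, 4.55, 4.92, 4.77 and 5.90 FPKM in Resist and 3.18, 4.25, 3.08, 3.69 and 3.68 FPKM in Naive libraries. Every Resist library was above every Naive library, although the means of 5.16 ± 0.583 and 3.58 ± 0.469 FPKM differed by less than the 1.5-fold limit. The log2 difference was 0.43 ± 0.10 (SE) with a limma adjusted p of 0.0115. Slc38a6, an orphan member of the sodium-coupled neutral amino acid carriers, had a log2 difference of 0.42 ± 0.16 (adjusted p = 0.0836), with Resist libraries from 7 to 13.8 FPKM and Naive libraries from 6.41 to 9.70 FPKM.

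The stretches of sequence just before the RefSeq start sites of Slc43a2 and Slc36a4 are shown because both genes were called higher in Resist than in Resist-Mac, and that of Slc7a11 because it is the family's classical amino acid response gene. All were taken from RefSeq on GRCm38.p6, 150 bases each, 5′ to 3′ on the strand of the gene. They lie at chr11:75531544-75531693 (plus strand), chr9:15709588-15709737 (plus strand) and chr3:50443614-50443763 (minus strand). Capitals mark the core of the amino acid response element.
Slc43a2: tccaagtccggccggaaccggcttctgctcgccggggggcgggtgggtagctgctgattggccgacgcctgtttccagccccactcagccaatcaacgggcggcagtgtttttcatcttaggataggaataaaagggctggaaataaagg
Slc36a4: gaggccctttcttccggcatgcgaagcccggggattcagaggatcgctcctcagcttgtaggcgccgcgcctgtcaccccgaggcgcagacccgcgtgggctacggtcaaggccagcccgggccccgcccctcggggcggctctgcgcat
Slc7a11: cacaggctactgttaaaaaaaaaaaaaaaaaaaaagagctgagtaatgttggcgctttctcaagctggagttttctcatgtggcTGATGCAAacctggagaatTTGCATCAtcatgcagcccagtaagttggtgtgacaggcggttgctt
RefSeq windows of 300 bases, 250 before and 50 after the start, were at hand for 14 of the 21 genes. Slc1a5, Slc6a6, Slc6a8, Slc7a4, Slc7a5, Slc38a1 and Slc43a3 had no window and were not searched. The windows at hand were searched on both strands for TGATGNAA, the core of the element that ATF4 binds, and for CACGTG, the E-box that Myc and its relatives bind. The letters TGATGNAA were present in 3.97% of 32851 windows of all genes, and in a window of 4.51% of 27025 genes. Among the 14 described genes searched, 2 held them: Slc7a11, in which the 2 copies face each other, and Slc1a4. The letters CACGTG were present in 7.15% of all windows and in a window of 8.09% of all genes. Among the 14 described genes searched, 2 held them, Slc36a1 and Slc38a7. Neither set of letters overlapped the other, and neither was found in the windows of Slc43a2 or Slc36a4. A match describes the letters of the window only.

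**Figure D2:**
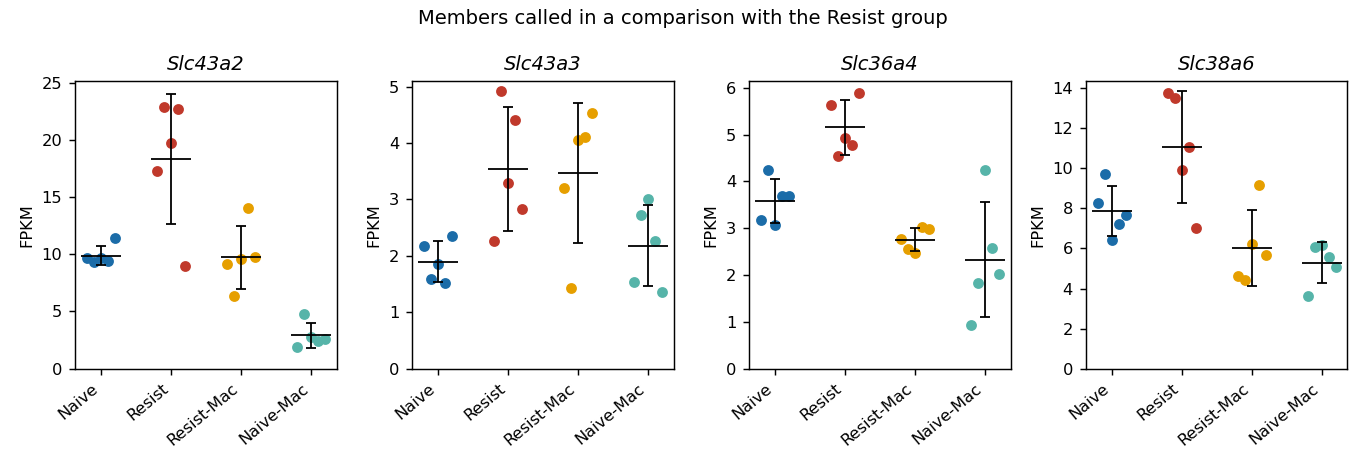
FPKM of Slc43a2, Slc43a3, Slc36a4 and Slc38a6 in each library; points are libraries, and the black marks give the group mean and SD (n = 5). Slc36a4 libraries of Resist lie from 4.55 to 5.90 FPKM, above all Naive and Resist-Mac libraries, and Resist replicate 5 of Slc43a2, at 8.99 FPKM, stands apart from the other Resist libraries.

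No chain of the heteromeric exchangers passed the test in Resist vs. Naive. Slc3a2 (Entrez 17254), the heavy chain, measured 142.7, 129.2, 128.7, 138.1 and 152.9 FPKM in Resist and 138.7, 158.9, 142.1, 164.3 and 162.2 FPKM in Naive libraries. The groups overlapped, and the log2 difference was -0.15 ± 0.07 (SE; limma adjusted p = 0.163). Slc7a5 (Entrez 20539), the large neutral amino acid light chain, measured 151.4, 121.6, 131.7, 129.7 and 140.3 FPKM in Resist and 124.2, 153.9, 133.6, 144.4 and 128.3 FPKM in Naive libraries. Its ranges lay almost on top of each other, with a log2 difference of -0.02 ± 0.08 (adjusted p = 0.880). Slc7a6, a light chain that exchanges arginine for neutral amino acids, had a log2 difference of 0.19 ± 0.07 (adjusted p = 0.0696). The FPKM of 6 light chains of Slc3a2 was summed, with Slc7a10, which had no row, counted as 0. The ratio of light chain to heavy chain FPKM was 1.20 ± 0.0810 in Naive and 1.30 ± 0.0503 in Resist libraries.

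Slc7a11 (Entrez 26570), the cystine and glutamate exchanger that feeds glutathione synthesis, was the most variable of the exchangers in Resist tumors. It measured 7.88, 21.8, 12.8, 19.3 and 19.3 FPKM in Resist and 19.4, 24.7, 20.1, 21.7 and 25.4 FPKM in Naive libraries. Resist replicates 1 and 3 lay far below the Naive range, while replicate 2 lay within it and the other two just under it. The log2 difference was -0.51 ± 0.22 (SE), and the limma adjusted p was 0.121. Slc7a1, the main carrier of arginine and lysine, had a log2 difference of -0.29 ± 0.09 and an adjusted p of 0.0493, which did not reach the 1.5-fold limit.

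**Figure D3:**
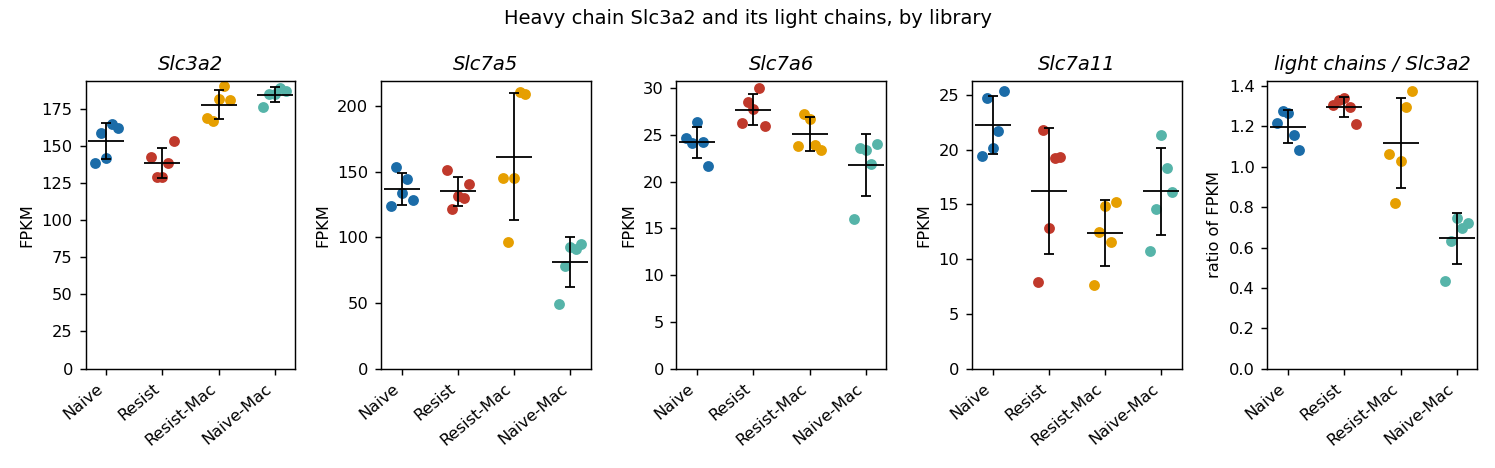
FPKM of the heavy chain Slc3a2 and of the light chains Slc7a5, Slc7a6 and Slc7a11 in each library, and in the last panel the ratio of summed light chain FPKM to Slc3a2 FPKM; points are libraries, and black marks are mean and SD (n = 5). The mean ratio is 1.20 for Naive, 1.30 for Resist, 1.12 for Resist-Mac and 0.646 for Naive-Mac libraries. It is of values as deposited, not corrected for transcript length.

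The neutral amino acid carriers of the Slc1 family did not pass the test in Resist vs. Naive. Slc1a5 (Entrez 20514), the sodium-dependent glutamine exchanger, measured 73.4, 65.4, 60.8, 75.2 and 67.7 FPKM in Resist and 63.1, 72.4, 64.5, 67.6 and 71.3 FPKM in Naive libraries. These ranges overlapped throughout, and the log2 difference was 0.01 ± 0.07 (SE; limma adjusted p = 0.915). Slc1a4 (Entrez 55963), which exchanges alanine, serine and cysteine, measured 14.0, 14.6, 12.8, 10.8 and 11.9 FPKM in Resist and 13.3, 14.8, 12.8, 17.2 and 16.4 FPKM in Naive libraries. Resist replicates 4 and 5 lay under the Naive range and the other 3 within it, with a log2 difference of -0.20 ± 0.10 (adjusted p = 0.179). Slc38a1 and Slc38a2, which bring in glutamine and alanine with sodium, had log2 differences of -0.15 ± 0.07 and -0.08 ± 0.10. Neither was called.

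Slc6a6 (Entrez 21366) had the highest level of the family in the Resist and Naive groups. It measured 329.1, 471, 381.5, 357.2 and 374.2 FPKM in Resist and 407.8, 443, 414.8, 431.6 and 496.4 FPKM in Naive libraries. Resist replicates 1, 3, 4 and 5 lay below every Naive library and replicate 2 lay within the Naive range, with a log2 difference of -0.20 ± 0.09 (SE; limma adjusted p = 0.135). Slc6a8, which carries creatine, had a log2 difference of -0.04 ± 0.10, and the glycine carrier Slc6a9 one of 0.39 ± 0.15 (adjusted p = 0.0943). Neither taurine nor creatine is used in protein synthesis, so that the gene with the highest level in these groups carries no protein-forming amino acid.

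The second comparison asked which carriers differed when macrophages were depleted in the last 4 days of the enzalutamide course. In Resist vs. Resist-Mac, 3 of the 21 genes were higher in Resist (Slc43a2, Slc36a4 and Slc38a6) and none was lower, against a share of 21.7% among the 10049 genes tested (9.71% higher in Resist, 12% lower). The 21 genes had a median log2 difference of 0.14, against -0.02 over all genes. Groups did not overlap for 2 of the 21, against 29.7% of all genes tested. The comparison shares its Resist libraries with Resist vs. Naive, so that the pattern of a gene high in Resist in both is not 2 independent findings.

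Slc43a2 measured 9.13, 6.32, 9.58, 14.0 and 9.76 FPKM in the Resist-Mac libraries, close to the Naive level. All but Resist replicate 5 lay above the highest Resist-Mac library. The log2 difference was 0.82 ± 0.24 (SE), with a limma adjusted p of 0.0161. Once the dependence on transcript length and GC content was removed within each library it was 0.26, and the call was lost.

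Slc36a4 measured 2.76, 2.55, 2.47, 3.02 and 2.98 FPKM in Resist-Mac libraries. Every Resist library, from 4.55 FPKM up, was above each of these, and the Resist-Mac libraries also lay below all Naive libraries. The log2 difference was 0.71 ± 0.11 (SE; limma adjusted p = 0.000412), and 0.33 after the length and GC correction, which ended the call. Slc38a6 measured 13.8, 13.5, 9.93, 11.1 and 7 FPKM in Resist and 4.64, 4.43, 6.21, 9.18 and 5.67 FPKM in Resist-Mac libraries. Its Resist replicates 1 to 4 lay above the Resist-Mac range and replicate 5 within it, with a log2 difference of 0.78 ± 0.20 (adjusted p = 0.00768). That call was kept after the length and GC correction, at 0.72.

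Slc3a2 stood the other way in the deposited values. It measured 168.4, 166.9, 181.2, 190.4 and 181.1 FPKM in Resist-Mac libraries, all above every Resist library. The log2 difference was -0.36 ± 0.08 (SE; limma adjusted p = 0.00333), which lay under the 1.5-fold limit. It was -0.31 after the length and GC correction and 0.02 (adjusted p = 0.855) after quantile normalization. Slc7a5 had its widest spread in this group, at 145.6, 96.7, 145.2, 211 and 209.2 FPKM, with a log2 difference of -0.21 ± 0.18 (adjusted p = 0.388). The 2 highest Slc7a5 libraries, Resist-Mac replicates 4 and 5, had light to heavy chain ratios of 1.30 and 1.38, and replicate 2, the lowest, had 0.820. These 2 libraries share a start of their deposited column names that the other 3 lack, and its meaning is not given in the sources used here. They also stood above the other Resist-Mac libraries for Slc38a4, a neutral amino acid carrier, at 78.8 and 80.5 FPKM against 34.4 to 50.8 FPKM. Without the pair, 6 of the 21 genes were called higher in Resist, with Slc6a6 (0.72), Slc36a1 (0.70) and Slc38a1 (0.65) added to the 3. The calls over all genes rose as well. Of 9979 genes tested without the pair, 1382 were called higher in Resist and 1333 lower, against 976 and 1205 of 10049 with all libraries. Over all alternatives of Resist vs. Resist-Mac, the log2 difference of Slc6a6 ran from 0.052 to 1.025. That of Slc36a1 ran from 0.13 to 0.70 and that of Slc38a1 from -0.11 to 0.65. All 10 calls in Resist-Mac vs. Naive-Mac were kept without the pair. Slc7a11 measured 7.67, 12.5, 14.9, 11.6 and 15.2 FPKM in Resist-Mac libraries and overlapped Resist (log2 difference 0.32 ± 0.25, adjusted p = 0.326).

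Slc1a5 and Slc1a4 did not pass the test in this comparison. Slc1a5 measured 81.9, 55.7, 66.1, 91.3 and 85.5 FPKM and Slc1a4 measured 13.2, 9.36, 12.3, 14.0 and 11.4 FPKM in Resist-Mac libraries. Their log2 differences were -0.13 ± 0.13 and 0.09 ± 0.12. Slc6a6 measured 245.9, 191.7, 258.8, 335 and 331.1 FPKM in Resist-Mac libraries, with only replicates 4 and 5 reaching into the Resist range. Its log2 difference was 0.51 ± 0.15 (limma adjusted p = 0.0184), under the 1.5-fold limit, and it became called without Resist-Mac replicate 4 (0.59). Slc36a1 likewise became called without Resist-Mac replicate 5, at 0.59 against 0.50 with all libraries.

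Slc7a4, an orphan relative of the cationic carriers, had group means of 11.1, 12.7, 15.4 and 11.4 FPKM in Naive, Resist, Resist-Mac and Naive-Mac libraries. Its log2 differences were 0.14 for Resist less Naive, -0.24 for Resist less Resist-Mac, -0.02 for Naive less Naive-Mac and 0.37 between the depleted groups. Its highest Resist-Mac libraries were again replicates 4 and 5, at 20.44 and 21.04 FPKM against 10.74 to 13.09 FPKM. Slc38a7, a glutamine carrier reported in lysosomes, had group means of 3.63, 4.27, 3.39 and 2.51 FPKM and log2 differences of 0.18, 0.25, 0.41 and 0.34 in the same orders. Slc38a4 had group means of 45.96, 38.16, 56.04 and 37.31 FPKM and log2 differences of -0.28, -0.47, 0.30 and 0.50. None of these 3 genes was called in any of the 4 comparisons.

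**Figure D4:**
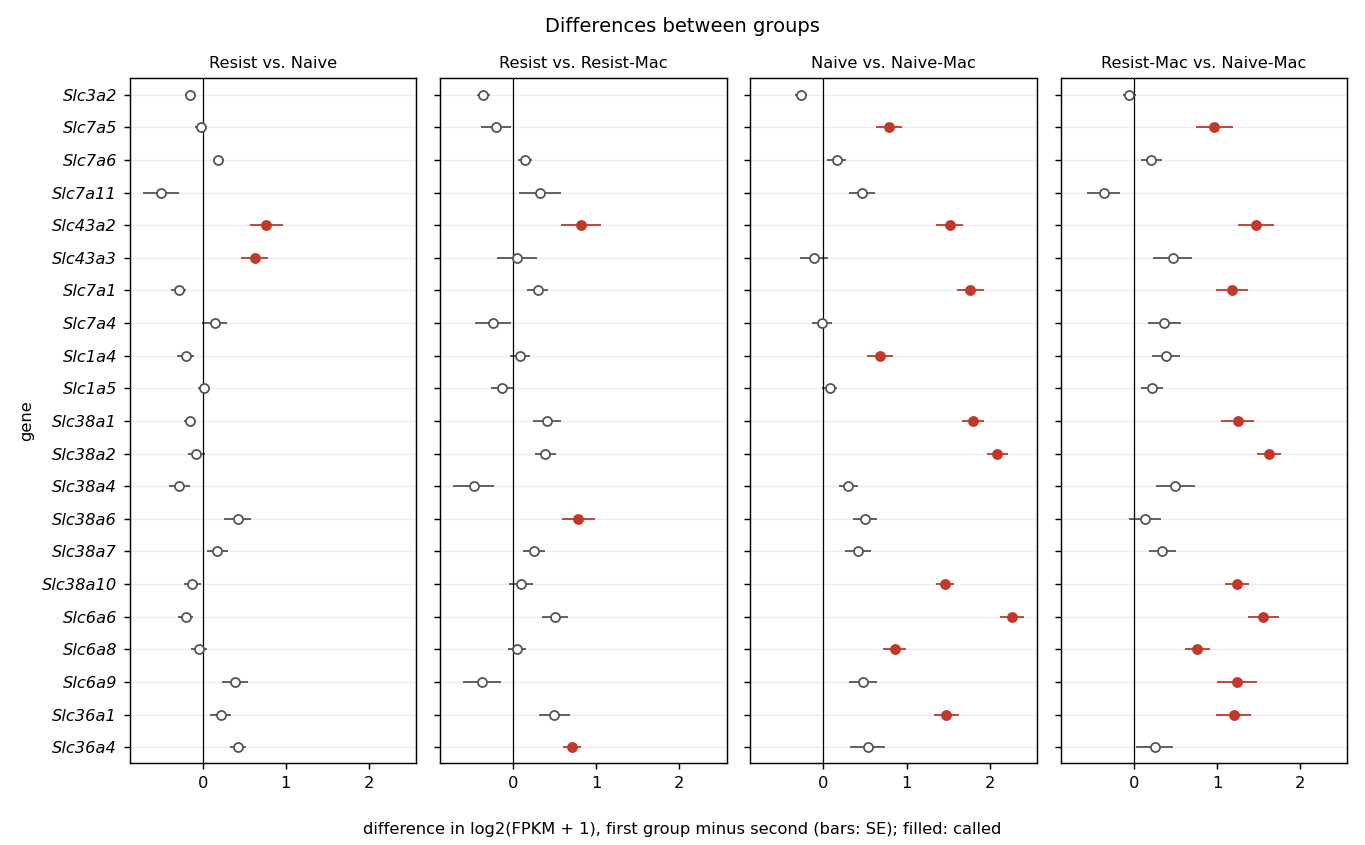
Difference in log2(FPKM + 1), first group minus second, for the 21 genes in the 4 comparisons; bars are standard errors and filled points passed the test. Resist vs. Naive has 2 filled points and Resist vs. Resist-Mac 3, while Naive vs. Naive-Mac and Resist-Mac vs. Naive-Mac have 10 each, all above 0.

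The third comparison asked the same of tumors without enzalutamide. In Naive vs. Naive-Mac, 10 of the 21 genes were higher in Naive and none was lower, and the libraries did not overlap for 12. The background was wide as well, since calls took up 59.7% of the 9837 genes tested (37.5% higher in Naive, 22.1% lower), and 66% did not overlap. The 10 genes were Slc6a6, Slc38a2, Slc38a1, Slc7a1, Slc43a2, Slc36a1, Slc38a10, Slc6a8, Slc7a5 and Slc1a4. The median log2 difference was 0.53 over the 21 genes and 0.23 over all genes tested. Median-ratio scaling brought the median over all genes to -0.05, a shift of the whole scale, and left 7 of the 21 higher and 1, Slc3a2, lower. Quantile normalization left 8 higher and 1 lower. Over all 9837 genes tested, calls were 2881 higher and 3063 lower with median-ratio scaling, and 2694 and 2781 with quantile normalization.

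Slc6a6 measured 61.2, 100.7, 120.9, 94.4 and 84.2 FPKM in Naive-Mac libraries, under the lowest Naive library of 407.8 FPKM. The means of 438.7 ± 35.1 and 92.3 ± 21.9 FPKM (SD, n = 5 each) differed by a log2 difference of 2.27 ± 0.14 (SE; limma adjusted p = 9.67e-09), the largest in the family. Slc38a2 fell from a mean of 105.4 ± 10.3 FPKM in Naive to 24.3 ± 4.85 FPKM in Naive-Mac, a log2 difference of 2.09 ± 0.12 (adjusted p = 5.93e-09). Slc38a1 at 1.80 ± 0.13, Slc7a1 at 1.76 ± 0.16 and Slc38a10, a less studied relative of the glutamine carriers, at 1.46 ± 0.11 showed the same separation. In each of these 5 genes every Naive library was above every Naive-Mac library.

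In the deposited values the heavy chain and its main light chain differed in opposite directions, although the sign for the heavy chain depended on the scaling. Slc3a2 measured 175.8, 185.1, 185, 189 and 187 FPKM in Naive-Mac, above all Naive libraries, with a log2 difference of -0.27 ± 0.07 (SE; limma adjusted p = 0.00321) that was under the 1.5-fold limit. It was -0.59 with median-ratio scaling, -0.16 after the length and GC correction and 0.41, with the sign turned, after quantile normalization. Slc7a5 measured 48.9, 78.3, 92.4, 91.0 and 94.6 FPKM, below all Naive libraries, with a log2 difference of 0.78 ± 0.16 (adjusted p = 0.000455). The ratio of summed light chains to Slc3a2 was accordingly 0.646 ± 0.126 in Naive-Mac, with libraries from 0.433 to 0.745, against 1.08 to 1.28 in Naive. This ratio is of values as deposited, from transcripts that differ in length: 2813 bases for Slc3a2, 3517 for Slc7a5 and 9223 for Slc7a11. The length and GC correction ended the Slc7a5 call and turned Slc7a11 to -0.71, and no corrected ratio was computed. Slc7a11 measured 10.7, 14.6, 21.3, 18.3 and 16.1 FPKM and overlapped Naive, with a log2 difference of 0.46 ± 0.15 (adjusted p = 0.0152).

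Slc1a5 had group means between 64.6 and 76.1 FPKM in all 4 groups. It measured 54.8, 70.9, 65.4, 69.7 and 62.1 FPKM in Naive-Mac, which overlapped Naive, and its log2 difference was 0.07 ± 0.09 (SE; limma adjusted p = 0.445). Over the alternatives that difference ran from -0.24 to 0.36 and its limma adjusted p from 0.000686 to 0.841, so that its sign depended on the processing. Slc1a4 measured 5.75, 10.0, 10.2, 11.3 and 8.27 FPKM, all under the lowest Naive library, with a log2 difference of 0.67 ± 0.16 (adjusted p = 0.00145). The call was lost without Naive-Mac replicate 1, at 0.54, the library with the lowest Slc1a4. Slc36a4, at 0.94, 1.83, 4.25, 2.58 and 2.02 FPKM in Naive-Mac, had a log2 difference of 0.53 ± 0.21 (adjusted p = 0.0349) and was called only without Naive-Mac replicate 3, at 0.72, or with a pseudocount of 0.1, at 0.74. Slc43a2 measured 1.92, 4.81, 2.79, 2.43 and 2.55 FPKM, below all Naive libraries, and its log2 difference was 1.52 ± 0.16.

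The fourth comparison set Resist-Mac against Naive-Mac, so that both groups were depleted of macrophages and differed in enzalutamide and in batch. In Resist-Mac, 10 of the 21 genes were higher and none was lower, against a share of 46.2% among the 9760 genes tested (37.2% higher in Resist-Mac, 9% lower). The libraries did not overlap for 10 of the 21 genes and for 47.8% of all genes. The median log2 difference was 0.50 over the 21 genes and 0.34 over all genes. Median-ratio scaling brought the latter to -0.04 and left 8 of the 21 higher and 1, Slc7a11, lower. Over all genes that scaling called 2187 higher and 2291 lower. Slc38a2 had the largest difference, 1.62 ± 0.15 (SE; limma adjusted p = 1.57e-06), with libraries from 61.6 to 88.2 FPKM in Resist-Mac and from 19.7 to 29.9 FPKM in Naive-Mac. Slc6a6 followed at 1.56 ± 0.19, Slc43a2 at 1.47 ± 0.21, Slc38a1 at 1.25 ± 0.20, Slc38a10 at 1.24 ± 0.15, and Slc6a9 at 1.24 ± 0.24. Slc6a9 measured 1.65 to 6.11 FPKM in Resist-Mac against 0.54 to 1.38 FPKM in Naive-Mac. Slc7a5 was higher by 0.97 ± 0.22 (adjusted p = 0.00209), Slc3a2 differed by -0.05 ± 0.08 (adjusted p = 0.570), and Slc1a5 by 0.22 ± 0.14 (adjusted p = 0.185). Slc38a4 became called without Resist-Mac replicate 2 (0.65) or replicate 3 (0.63), and Slc43a3 without Resist-Mac replicate 2 (0.67), against 0.50 and 0.46 with all libraries. The change on depletion also differed between treated and untreated tumors for 11 of the 21 genes at an adjusted p under 0.05, against 51.9% of 9876 genes tested, with limma over all 4 groups. All 11 were below 0 in the deposited values, where 3783 of all genes tested passed below 0 and 1338 above. With median-ratio scaling 2 of the 21 were above and 9 below, and with quantile normalization 4 above and 7 below. Over all genes, 2710 were above and 2751 below with median-ratio scaling, and 2149 above and 2407 below with quantile normalization. The fourth comparison shares its Naive-Mac libraries with the third, and the low Naive-Mac level of Slc6a6, Slc38a2 and Slc7a5 enters both.

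In the comparisons across batches, the differences of the carriers followed the length of their transcripts. Over the 21 genes, Spearman's rho between the log2 difference and the longest annotated transcript was 0.69 for Resist against Resist-Mac, 0.76 for Naive against Naive-Mac, 0.39 between the depleted groups and -0.35 between the undepleted groups. Over all genes with a length the values were 0.64 (n = 10027), 0.71 (n = 9655), 0.61 (n = 9737) and 0.16 (n = 9880). The genes share libraries and are not independent replicates. In Naive vs. Naive-Mac, the 9 carriers with a transcript of 4000 bases or more had a median log2 difference of 1.52, and 7 of them were called higher. The 12 shorter carriers had a median of 0.36, and 3 were called.

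The length and GC correction left 3 of the 10 calls in Naive vs. Naive-Mac. These were Slc38a2 at 1.25, Slc6a6 at 1.13 and Slc38a10 at 0.61. Of 9655 genes tested over all with the correction, 3146 were called higher in Naive and 1018 lower. Slc7a11, which has the longest transcript of the 21 at 9223 bases, turned from 0.46 to -0.71 and was then called lower in Naive. Slc43a2 went from 1.52 to 0.11. In Resist-Mac vs. Naive-Mac the correction kept 5 of the 10 calls, Slc38a2 at 1.14, Slc6a9 at 0.95, Slc6a6 at 0.84, Slc7a5 at 0.69 and Slc38a10 at 0.61. It added Slc43a3 at 0.79 and called Slc7a11 lower, at -1.03, which made 6 higher and 1 lower. Of 9737 genes tested over all, 3316 were then called higher in Resist-Mac and 397 lower. In Resist vs. Naive both calls were kept, with Slc43a2 at 0.68 and Slc43a3 at 0.66.

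**Figure D5:**
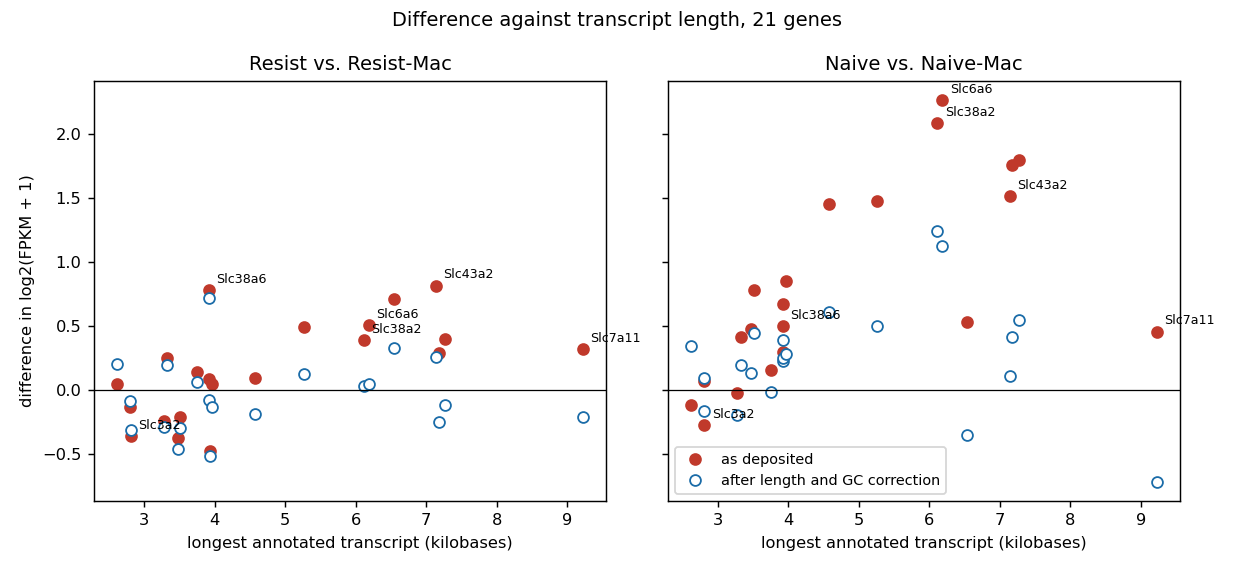
Difference in log2(FPKM + 1) of the 21 genes against the length of their longest annotated transcript in kilobases, for Resist vs. Resist-Mac and Naive vs. Naive-Mac; filled points are the values as deposited and open points those after the length and GC correction. Slc6a6 goes from 2.27 to 1.13 and Slc7a11 from 0.46 to -0.71 in Naive vs. Naive-Mac.

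The other genes of amino acid handling were read from 3 lists, to be set against the shares called over all genes. The values of all 3 lists are those as deposited, without the length and GC correction. In the comparisons across batches the differences over all genes followed transcript length, and its part in the list values was not tested. The shares called over all genes were 5.25% higher and 1.11% lower in the first comparison and 9.71% and 12% in the second. They were 37.5% and 22.1% in the third, and 37.2% and 9% in the fourth. Of 15 integrated stress response genes, the program that ATF4 runs in amino acid shortage, 2 fell in Resist vs. Naive and none rose. These were Vegfa (log2 difference -0.67, limma adjusted p = 0.0154), an angiogenic factor, and Chac1 (-0.62, adjusted p = 0.0478), which degrades glutathione. The list had a median log2 difference of -0.05, against 0.03 over all genes. In Resist vs. Resist-Mac 4 were higher in Resist, among them Eif2ak4 (0.84), the kinase that senses uncharged tRNA, and Nupr1 (0.91), and Cebpb (-1.14) was lower. In Naive vs. Naive-Mac 8 of 15 were higher and none lower, with Atf4 at 1.13 and Atf3 at 2.40, and in Resist-Mac vs. Naive-Mac 7 were higher, with Atf4 at 1.10, and 1, Ddit4 (-0.72), was lower.

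Of 15 tested genes of serine, glycine and glutamine metabolism, 1 rose in Resist vs. Naive. It was the glutaminase Gls2 (log2 difference 0.59, limma adjusted p = 0.00792), and none fell. The serine synthesis genes Phgdh, Psat1 and Psph were lower in Resist than in Resist-Mac (-0.74, -0.74 and -1.30), and these 3 were the only calls of the list there. They were also lower in Naive than in Naive-Mac (-0.92, -1.24 and -0.84), where Mthfd1l (0.65) was higher.

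A list of the amino acid sensing machinery of mTORC1 also holds subunits of that kinase complex (Mtor, Rptor, Mlst8) and its substrates (Rps6kb1, Eif4ebp1). Of 33 tested genes of this list, 2 rose in Resist vs. Naive. These were Sesn3 (log2 difference 0.82, limma adjusted p = 0.0184) and Castor2 (0.59, adjusted p = 0.0282), and none fell. In Resist vs. Resist-Mac 4 were higher, among them the kinase Mtor (0.72), and 6 were lower, among them Lamtor4 (-0.92), a subunit of the lysosomal scaffold. In Naive vs. Naive-Mac 12 of 31 tested were higher and 10 lower, with Mtor at 1.99 and Lamtor5 at -1.91, and in Resist-Mac vs. Naive-Mac 12 of 31 were higher and 5 lower, so that the share higher was near that over all genes in both. The list medians were 0.06, 0.05, 0.01 and 0.41 in the order of the 4 comparisons, against medians over all genes of 0.03, -0.02, 0.23 and 0.34.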

How the data were processed

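RNA from sorted tumor cells was made into poly(A)-selected libraries and sequenced as paired-end reads on a BGISEQ-500. Per the labels, reads were processed with Bowtie2 against mm9. The counting tool, annotation and use of strand are not given in the sources used here. The authors deposited FPKM, computed within each library, in 3 tables keyed by Entrez ID. The table of Naive and Resist was deposited on a log2 scale, as log2(FPKM + 1). It was back-transformed to 2 decimals. Its 752 rows named BGI_novel (8.45% of FPKM) were left out. Symbols came from the RefSeq table of GRCm38.p6. With no read counts, depth is unknown, and no count test was used. Reads of Slc7a6 and Slc36a1 cannot be told apart from their opposite-strand partner genes if strand was not used.

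Each comparison was fitted on its own 10 libraries with limma 3.58.1 (R 4.3.3; prior variance with a trend) on log2(FPKM + 1), over genes that averaged 1 FPKM or more in those libraries, and p-values were adjusted over all genes tested (Benjamini-Hochberg). Calls needed an adjusted p under 0.05 and over 1.5-fold. On simulated data 97.5% to 98.5% of 200 genes changed by 1.5 on the log2 scale were found, with 4 to 8 false calls. The changed genes had a mean log2(FPKM + 1) above 2. Smaller changes, and changes in genes at lower levels, were not simulated. Libraries of a group are pools of mice and no 2 libraries were identical. Replicate numbers did not pair libraries: same-number correlations of deviations ran from -0.376 to 0.356, and not every pair exceeded 0.1 in any comparison.

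Members and lists were chosen with earlier results of these data known. The genes described were all members with a group mean of at least 1 FPKM (other members are named only as near 0 or without a row), with library values for those called in Resist vs. Naive, for Slc3a2, Slc7a5, Slc7a11, Slc1a4 and Slc1a5 and for the highest expressed member. Library values of Slc36a4 and Slc38a6 were added after their values were seen. Alternatives were a pseudocount of 0.1, no filter, a mean floor of 5 FPKM, median-ratio scaling, quantile normalization, a length and GC correction, a fold over 2, a noise-distribution probability over 0.8 (after NOISeq, the method of the study), a replicate block, all 4 groups in 1 fit, a prior variance without a trend, and leaving out each library. Leaving out Resist-Mac replicates 4 and 5 together was added after the data were seen. Levels set across tables come from libraries scaled separately. Figures used matplotlib 3.10.9. Results for some genes are not reported here.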

Additional observations from a re-analysis of the deposited data

Results flagged for a closer look

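In all, 6 groups of 5 libraries among 84 tested (21 genes in 4 groups) held a library whose gap to its neighbour exceeded Dixon's critical value of 0.71 times the range, where chance gives about 4.2. Naive-Mac replicate 1 was flagged at 15.96 FPKM for Slc7a6, 4.08 FPKM for Slc7a1 and 1.41 FPKM for Slc38a7. The others stood at 11.39 FPKM for Slc43a2 and 16.23 FPKM for Slc6a8 in Naive, and at 3.45 FPKM for Slc6a9 in Resist. The 84 groups share their libraries, so that they are not independent.

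The difference between undepleted and depleted tumors was itself compared between enzalutamide-treated and untreated tumors, as (Resist minus Resist-Mac) minus (Naive minus Naive-Mac) on the log2(FPKM + 1) scale with limma over all 4 groups. It passed an adjusted p of 0.05 for 11 of the 21 genes, all below 0, and for 51.9% of 9876 genes tested. Over all genes, 3783 passed below 0 and 1338 above. With median-ratio scaling 2 of the 21 genes were above 0 and 9 below, with quantile normalization 4 and 7, and with the length and GC correction 1 and 9. Over all genes these settings gave 2710 above and 2751 below, 2149 and 2407, and 734 and 3804. Without Resist-Mac replicates 4 and 5 it passed for 8 of the 21 genes, all below 0. Of 9822 genes tested in that setting, 3249 passed below 0 and 1117 above. The values were -1.76 for Slc6a6, -1.70 for Slc38a2, -1.47 for Slc7a1, -1.39 for Slc38a1, -1.37 for Slc38a10, -0.99 for Slc7a5, -0.98 for Slc36a1, -0.85 for Slc6a9, -0.81 for Slc6a8, -0.77 for Slc38a4 and -0.59 for Slc1a4, and the adjusted p was highest for Slc38a4, at 0.0286. The median over all genes was -0.28, and it was 0.02 after median-ratio scaling. Each depleted group is a batch of its own, so that this difference cannot be told apart from the batches.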

How the results depend on the processing

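The 2 calls in Resist vs. Naive became 1 with a mean of at least 5 FPKM, median-ratio scaling, quantile normalization, all 4 groups in 1 fit or the noise-distribution probability, 0 with a fold over 2, and 0 to 2 when 1 library was left out. The block on replicate number, which does not pair libraries, also gave 1 (Slc43a3 lost, adjusted p = 0.0605), with 624 calls over all genes against 643, and left the number of calls among the 21 genes as it was in the other comparisons; at most 2 of 5 pairs correlated best with their own number. The 3 calls in Resist vs. Resist-Mac became 5 with quantile normalization and 1 with the length and GC correction. They became 0 with a fold over 2 or the noise-distribution probability, which called 1079 genes over all against 2181. Leaving out 1 library gave 3 to 4. Leaving out Resist-Mac replicates 4 and 5 together, chosen after seeing the data, gave 6, with 2715 calls over all genes. In Naive vs. Naive-Mac the 10 calls became 4 with the length and GC correction, which called 4164 of 9655 genes over all. Slc7a11 reversed there, from 0.46 to -0.71. Leaving out 1 library gave 9 to 11 calls. In Resist-Mac vs. Naive-Mac the noise-distribution probability left 5 of 10, and called 1455 genes over all. The 11 differences between depletion effects stayed within 1.5-fold in number but not in kind. Quantile normalization lost 5 of them and called 4 above 0, Slc38a6 (0.85), Slc36a4 (0.76), Slc43a3 (0.72) and Slc38a7 (0.43, reversed). Median-ratio scaling lost 2 and called Slc38a6 (0.59) and Slc7a6 (0.33, reversed) above 0, and the length and GC correction called Slc36a4 (0.65) above 0. Of 2393 alternative values of single genes, 74 lost a call, 30 gained one and 84 changed sign without a call in either fit. The causes of these changes were not tested. Depth is unknown, which limits what can be said of genes near 1 FPKM.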
